A study of Mus musculus with 26 samples.

Results

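The 100 genes described here were gained in every library of MaTAR25 knockout (KO) cells. They were chosen by their measured levels. For each gene the count was divided by the library's total over genes and put in the usual CPM unit, and the gene had to reach 1 CPM in at least 5 of the 7 KO libraries. The 11389 genes that did so, of 45318 in all, were ranked by the lowest KO CPM over the highest control CPM, with 0.1 CPM added to both, and the 100 with the highest ratio were taken. The ratio ran from 9.41 for rank 1 to 2.14 for rank 100. Since KO against control chose these genes, their gain over control is a description and nothing is read from it. The rule limits how far the KO clones can part but does not fix how they compare with each other. It does not fix what the genes do, where they lie, or how they stand to the sites that MaTAR25 RNA was pulled down with.

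MaTAR25 is a nuclear long noncoding RNA of mouse mammary tumors. Long noncoding RNAs of this kind can act at distant genes by meeting chromatin, and a knockout may change both direct targets and many genes downstream. A sizeable group of the members belongs to the machinery that licenses, fires and copies DNA replication origins. In that machinery the origin recognition complex and Cdc6 load the Mcm helicase, kinases and Gins proteins activate it, and the E2F factors drive transcription of most of these genes as cells enter S phase.

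RNA was sequenced from 4T1 cells, a triple-negative mammary carcinoma line of BALB/c origin, grown in serum-containing medium with no further treatment. There were 2 control libraries, labelled wild type and made with a guide RNA against Renilla luciferase, and 3 KO1 and 4 KO2 libraries of genotype MaTAR25-/-. KO1 and KO2 are each 1 single-cell clone in which CRISPR/Cas9 removed both copies of the MaTAR25 start site, so that clone, guide pair and genotype cannot be told apart within a clone. ChIRP-seq peaks, the sites pulled down with biotin oligos against MaTAR25, were given as 4 lists over pooled replicates. Nothing says that the libraries of a clone came from separate cultures, and p-values then measure only the spread between these libraries, which may be technical.

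The total over genes ran from 25367211 to 61110585 counts per library. For MaTAR25 the controls gave 35 and 30 counts, the KO1 libraries 2, 7 and 0, and the KO2 libraries 11, 1, 9 and 6, so that every KO library had fewer counts than both controls. Epithelial markers (10 genes, among them Epcam, Cdh1 and Krt8) summed to 6475 to 6608 CPM in control. Their sum was 7345 to 8662 CPM in KO1 and 2688 to 5429 CPM in KO2. The list was split: 2 of the 10 passed an adjusted p of 0.1 by edgeR as higher in KO and 3 as lower. Krt7 was at 831 CPM on average in control, 2897 in KO1 and 923 in KO2, and Cdh1 at 895, 632 and 464 CPM. The 8 myoepithelial markers summed to 2.92 to 21.8 CPM and the 9 fibroblast markers to 11.1 to 48.0 CPM over all libraries, with Krt5, Col3a1, Dcn, Lum and Thy1 at 0 throughout, and the 6 endothelial markers to at most 1.73 CPM. The 8 lymphocyte markers summed to at most 0.196 CPM in any library. The 8 macrophage markers summed to 12.7 to 16.5 CPM in control, 26.9 to 47.9 in KO1 and 13.6 to 45.4 in KO2, nearly all from Cd68, Cd14 and Csf1r, while C1qa, C1qb and Adgre1 had no count in any library. Fewer cells of a state and less RNA per cell cannot be told apart in bulk libraries.

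The members were summed over each library to see the size of the group. Together they took 2748 and 2757 CPM in the control libraries and between 9910 and 12087 CPM in the KO libraries. Of the 100, 93 are protein coding by GENCODE, and 23 were under 1 CPM in both controls. The mean KO level was 4.44-fold the mean control level at the median of the 98 members that had counts in control, from 2.52-fold for Chst12, a chondroitin sulfotransferase, to 134-fold for Tgfbr3, the type III TGF-beta receptor. There were 21 members over 10-fold and 11 under 3-fold.

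**Figure D1:**
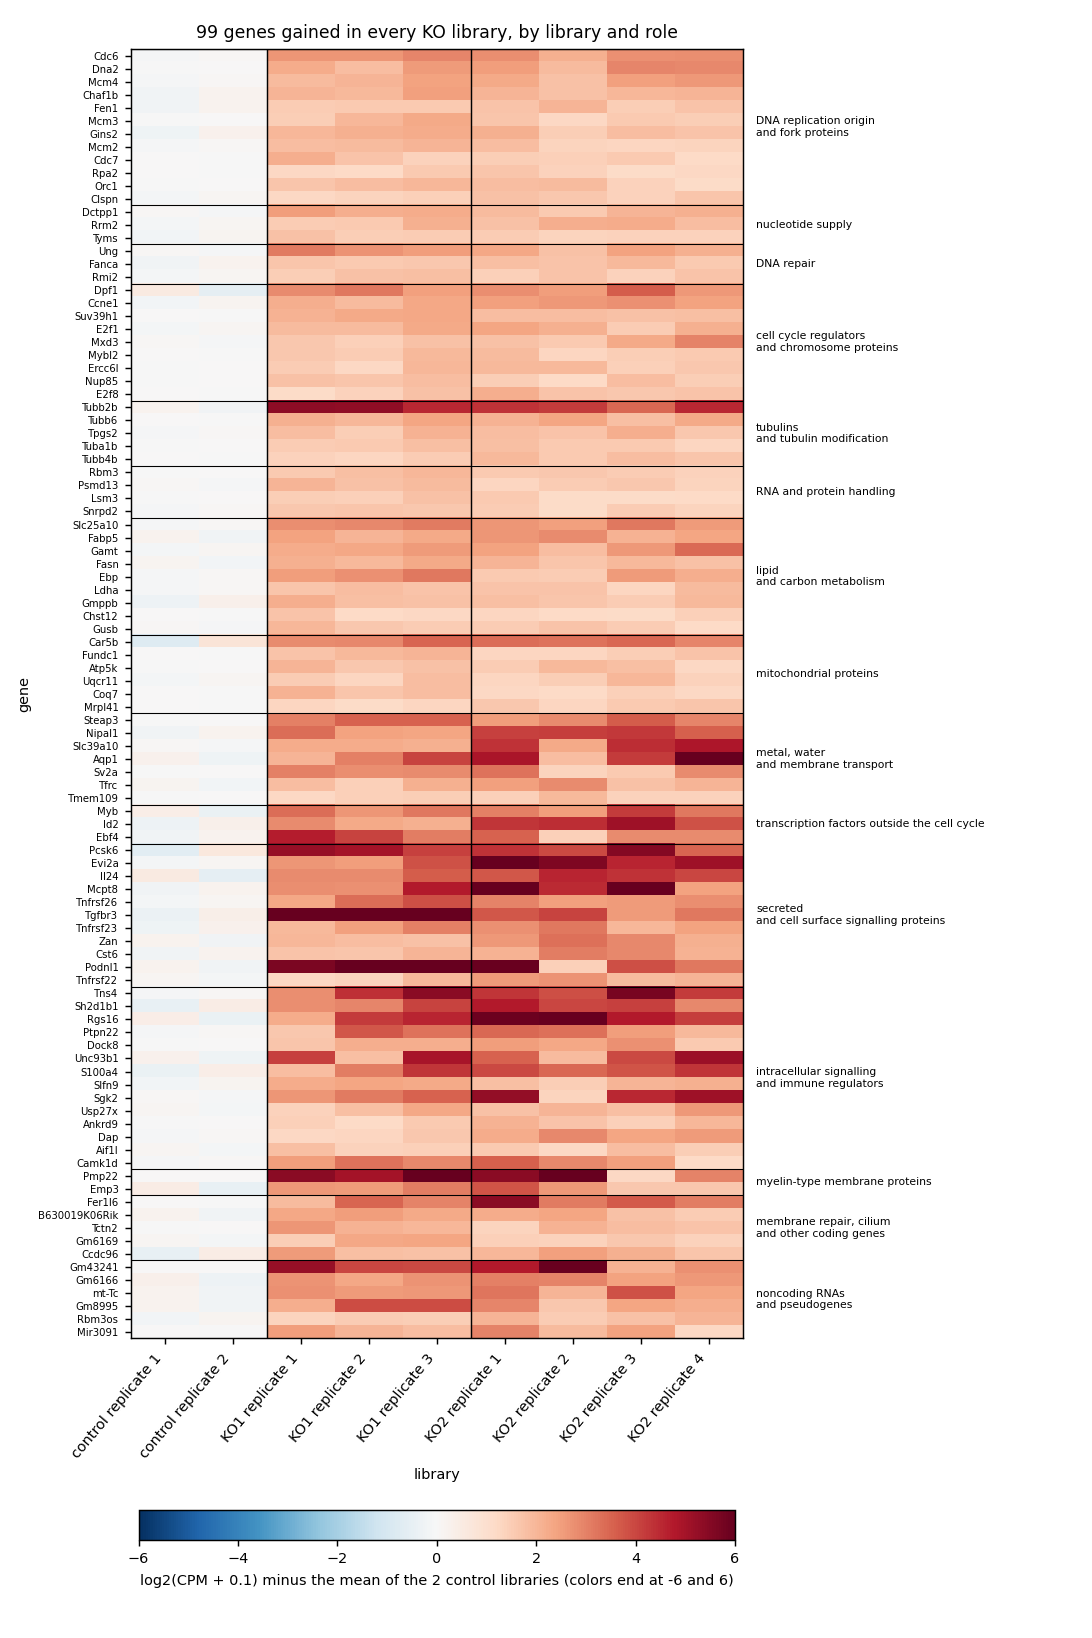
The 99 members reported here (rows, grouped by role and ordered by rank within a role) in the 9 libraries (columns), as log2 of CPM plus 0.1 minus the mean of the 2 control libraries; colors end at 6. Replication and cell cycle members are even and moderate across the 7 KO libraries, and signalling members are stronger and more uneven, with Tgfbr3 and Podnl1 darkest in KO1 and Evi2a and Id2 darkest in KO2.

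In the fit across all 15023 genes tested, all 100 members passed an adjusted p of 0.1 as higher in KO than in control, as the rule nearly fixes; 16.6% of all genes tested did so, and 16.4% passed as lower. Each clone alone gave the same count of 100, beside 15.9% of all genes for KO1 and 16.5% for KO2. The median difference from control on the log2 scale was 2.28 in KO1 and 2.39 in KO2. Both clones were compared with the same 2 control libraries.

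DNA replication was the role of 12 members, which act at origins and forks: Orc1 of the origin recognition complex, the loader Cdc6, the helicase subunits Mcm2, Mcm3 and Mcm4, Gins2, the kinase Cdc7 that fires origins, the single-strand binding subunit Rpa2, the flap nucleases Fen1 and Dna2, the checkpoint mediator Clspn, and Chaf1b, which places histones on new DNA. Their summed level was 387 and 430 CPM in control, 1394, 1538 and 1818 CPM in KO1, and 1546, 1155, 1417 and 1444 CPM in KO2. All KO libraries stood above both controls, and KO1 and KO2 overlapped.

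Cdc6 ranked highest among them, at rank 17. It was at 11.5 and 12.4 CPM in control, at 74.7, 76.6 and 91.0 in KO1, and at 84.0, 52.4, 79.8 and 82.4 in KO2. Only KO2 replicate 2 stood below the KO1 libraries' range. The mean KO level of Cdc6 was 6.45-fold the control level, and the clones differed by 0.11 on the log2 scale (KO1 minus KO2, SE 0.17, adjusted p = 0.71 by the quasi-likelihood test of edgeR after Benjamini-Hochberg adjustment, 95% interval -0.23 to 0.45). Dna2 followed with 7.55 and 7.99 CPM in control and 28.2 to 60.4 CPM over the KO libraries. The helicase subunit Mcm4 was at 63.5 and 71.7 CPM in control and at 226 to 409 CPM in KO.

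Mcm2 was the only member of the replication group whose clones were called different. It was at 85.5 and 97.1 CPM in control, 330, 341 and 374 CPM in KO1, and 324, 227, 223 and 232 CPM in KO2. The KO1 libraries all stood above the KO2 libraries, with KO2 replicate 1 close to them. The difference was 0.46 on the log2 scale (SE 0.16, adjusted p = 0.0957 by edgeR), and it stayed under 0.1 in 1 of the 9 fits that each left out 1 library. For all 12 genes of the group the clones lay within 0.5 on the log2 scale of each other, from -0.36 for Dna2 to 0.46 for Mcm2.

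The rest of the licensing and helicase genes were looked up in a list written after the members were known, so its counts are no independent support. Of its 25 genes, all tested, 7 are members. Among the other 18, 13 passed as higher in KO and 1 as lower, and 4 were not called, with a median of 0.74 on the log2 scale; the median over all genes tested was 0.02. The remaining helicase subunits Mcm5, Mcm6 and Mcm7 were at 193, 127 and 119 CPM on average in control, at 480, 526 and 363 CPM in KO1, and at 474, 320 and 275 CPM in KO2. The origin subunits Orc3 and Orc5 were at 57.7 and 41.5 CPM in control, 40.9 and 31.9 CPM in KO1, and 43.2 and 29.5 CPM in KO2, so both had lower means in KO, and Orc3 is the 1 that passed as lower.

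Nucleotide supply and repair made up smaller groups of 3 members each. Rrm2, the small subunit of ribonucleotide reductase, was at 68.3 and 80.9 CPM in control, 213, 222 and 325 in KO1, and 252, 335, 347 and 269 in KO2. Tyms, which makes thymidylate, was at 40.0 and 48.8 CPM in control and at 112 to 148 CPM in KO. Dctpp1, which clears modified deoxycytidine triphosphate, was at 21.9 and 20.3 CPM in control, 96.4 to 119 CPM in KO1 and 63.1 to 92.5 CPM in KO2. The uracil glycosylase Ung was at 8.18 and 7.38 CPM in control, 68.2, 51.1 and 44.6 in KO1, and 39.1, 26.6, 41.8 and 34.0 in KO2. Every KO1 library of Ung stood above every KO2 library, and the clones differed by 0.61 on the log2 scale (SE 0.18, adjusted p = 0.0599 by edgeR). The other repair members were Fanca, of the Fanconi core complex, and Rmi2, of the BLM dissolvasome.

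Among 9 members that regulate the cell cycle or act on chromosomes were E2f1 and E2f8, an activator and a repressor of the E2F family, Mybl2, a partner of the late cell cycle complexes, and Ccne1, the cyclin that drives entry into S phase. E2f1 was at 21.1 and 25.5 CPM in control, 87.0, 86.4 and 114 in KO1, and 122, 100.5, 67.3 and 103 in KO2. Ccne1 was at 4.38 and 5.48 CPM in control, 18.5 to 24.9 CPM in KO1 and 26.2 to 33.5 CPM in KO2, so that the clones did not overlap, with a difference of -0.43 on the log2 scale that was not called (SE 0.19, adjusted p = 0.163 by edgeR). Mxd3 of the Myc network, the mitotic helicase Ercc6l and the nuclear pore protein Nup85 had means of 3.09-fold to 4.10-fold those in control. Dpf1, a subunit of BAF chromatin remodelers known from neurons, ranked 19 with 0.510 and 0.192 CPM in control and 2.26 to 5.11 CPM in KO. The histone H3 lysine 9 methyltransferase Suv39h1 was at 14.7 and 14.1 CPM in control, 60.6, 69.4 and 73.1 in KO1, and 52.9, 53.0, 48.3 and 49.9 in KO2. The KO1 libraries all stood above the KO2 libraries, and the clones were called different by 0.40 (SE 0.14, adjusted p = 0.0906 by edgeR).

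Taking the replication, nucleotide, repair and cell cycle members together, these 27 genes had a median fold over control of 3.30 and a median control level of 21.1 CPM, while the other 73 had a median fold of 5.74 from a median control level of 5.13 CPM. The clones lay within 0.5 on the log2 scale for 25 of the 27 and for 46 of the 73, beside 62.5% of all genes tested. Clone differences were called for 3 of the 27 and for 15 of the 73, beside 19.6% of all genes tested. The genes were put into roles after the members were known, and no test was made between the roles.

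To look at what promoters of the 27 genes share, RefSeq promoter windows of GRCm38.p6, from 250 bases before to 50 bases after a gene's start, were searched on both strands for the E2F words TTTCGCGC, TTTGGCGC, TTTCCCGC and TTTGCCGC. A window was found for 70 members, 12 of them with more than 1 window, and a gene was counted once if any of its windows held a word. Of the 22 replication, nucleotide, repair and cell cycle members with a window, 5 held a word (22.7%), namely Cdc6, Suv39h1, Mcm3, Orc1 and Clspn. Of the other 48 members, 1 did (2.08%), namely Fasn. Among all 10504 tested genes with a window, 489 did (4.66%), and so did 2.26% of all 32851 windows. Genes of these roles that are no members were not counted apart, so nothing about the gain in KO is read from these shares. The words can overlap each other on opposite strands. The following stretches are shown because they hold the word before the start of a member of the origin and chromatin groups; the capitals mark the word, read 5′ to 3′ on the strand of the gene, where all 3 words stand as their reverse complement.
Cdc6, chr11:98907997-98908036, plus strand: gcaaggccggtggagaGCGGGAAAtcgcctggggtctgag
Orc1, chr4:108579411-108579450, plus strand: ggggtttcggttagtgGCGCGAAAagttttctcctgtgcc
Suv39h1, chrX:8074402-8074441, minus strand: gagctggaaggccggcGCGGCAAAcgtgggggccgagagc

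The word began 138 bases before the start in Cdc6, 27 bases before in Orc1 and 64 bases before in Suv39h1. Over all 70 members with a window the share was 8.57%. Other promoter words were searched in the same windows. The letters TTTGAA or TTCGAA, known as the CHR element of late cell cycle promoters, stood in 22.9% of the members' promoters and in 16.2% of all tested genes' promoters. By role, they stood in 18.2% of the 22 replication, nucleotide, repair and cell cycle members and in 25% of the other 48. CCAAT stood in 45.7% of the members' promoters and in 42.7% of all tested genes' promoters, and TATAAA in 10.0% and 8.79%. The median GC content of the windows was 62.2% for members and 60.7% for all tested genes. Whether these letters are bound was not measured.

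Tubulins held rank 1. Tubb2b, a beta-tubulin best known from neurons, was at 1.04 and 0.738 CPM in control, 40.0, 39.3 and 22.5 in KO1, and 20.0, 18.1, 10.6 and 22.6 in KO2. Among the KO libraries, KO2 replicate 3 was lowest. The clones were called different by 0.91 on the log2 scale (SE 0.29, adjusted p = 0.075 by edgeR), although KO1 replicate 3 and KO2 replicate 4 were at nearly the same level. Tubb6 was at 101.3 and 101.2 CPM in control and at 354 to 528 CPM in KO. Tubb4b was at 144 and 139 CPM in control, 342 to 403 CPM in KO1 and 416 to 539 CPM in KO2, with no overlap between the clones and a difference of -0.38 (SE 0.13, adjusted p = 0.0915 by edgeR). Tuba1b, an alpha-tubulin, was at 64.3 and 64.6 CPM in control and at 158 to 227 CPM in KO. A further member, Tpgs2, belongs to the complex that adds polyglutamate chains to tubulin.

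The list of tubulins, matched by symbol, also took in gamma-tubulin complex proteins (Tubgcp genes). Among its other 12 tested tubulins, 6 passed as higher in KO and 1 as lower, and of the 5 gamma-tubulin complex proteins 3 passed as higher and none as lower. Tubb5, the beta-tubulin with the most counts, was at 994 CPM on average in control, 2243 in KO1 and 2373 in KO2. Tuba8 was the 1 that passed as lower, with 6.64 CPM in control, 13.4 CPM in KO1 and 0.0879 CPM in KO2. Tubulins share long identical stretches, and Tubb2b aligned to Tubb2a at 96.4% identity over 1350 bases, so reads may have been split between such copies and the levels of single tubulins are uncertain.

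The secreted and cell surface proteins were 11 members. Of these, 5 were called different between KO1 and KO2, beside 19.6% of all genes tested, and 5 had clones that did not overlap, beside 24.2% of all genes. Tgfbr3 was at 0.0232 and 0.0962 CPM in control, which is 1 and 3 counts, at 10.8, 23.2 and 15.7 CPM in KO1, and at 1.94, 2.44, 0.802 and 1.29 CPM in KO2. Every KO1 library stood above every KO2 library, and every KO2 library was above both controls. The clones differed by 3.34 on the log2 scale (SE 0.47, adjusted p = 0.00506 by edgeR). Without 1 library at a time the difference stayed between 3.02 and 3.63 and was called in all 9 fits.

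Evi2a, a membrane protein that lies inside an intron of Nf1, went the other way. It was at 0.116 and 0.160 CPM in control, 1.41, 1.24 and 3.27 in KO1, and 14.9, 11.6, 5.47 and 8.07 in KO2. The clones did not overlap and differed by -2.35 (SE 0.49, adjusted p = 0.0192 by edgeR). Nf1, on the opposite strand, had a mean of 117 CPM in control, 51.6 in KO1 and 57.4 in KO2. The cytokine Il24 was at 8.57 and 4.04 CPM in control, 43.0, 43.1 and 74.7 in KO1, and 79.1, 141, 122 and 96.6 in KO2, with a clone difference of -1.04 (SE 0.33, adjusted p = 0.0694 by edgeR). The KO2 libraries of Il24 all stood above the KO1 libraries, if only slightly above KO1 replicate 3.

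Other members of this group were spread widely within a clone. Mcpt8, a mast cell and basophil protease, was at 0.162 and 0.257 CPM in control, 2.0, 1.957 and 8.17 in KO1, and 24.2, 6.66, 44.0 and 1.55 in KO2. Podnl1, a small leucine-rich matrix protein, was at 0.556 and 0.385 CPM in control, 28.4, 35.9 and 97.2 in KO1, and 34.8, 1.42, 8.02 and 5.03 in KO2. In both genes the KO2 libraries spread from below the KO1 range into it or past it, and the clone differences of -2.21 (SE 0.99, adjusted p = 0.171) and 2.14 (SE 0.86, adjusted p = 0.135 by edgeR) were not called. Cst6, a cysteine protease inhibitor, and Zan, a sperm membrane protein, had means 5.09-fold and 6.11-fold those in control. Pcsk6, the proprotein convertase that ripens TGF-beta family ligands, had rank 2 with 0.255 and 0.770 CPM in control and 6.09 to 24.8 CPM over the KO libraries.

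The 3 TNF receptor members are neighbours on chromosome 7. Tnfrsf26, Tnfrsf22 and Tnfrsf23, the last 2 of which are decoy receptors for TRAIL, lie within 78.2 kb (chr7:143607659-143685872), where no other gene was tested. Tnfrsf26 was at 0.232 and 0.289 CPM in control and at 1.70 to 5.21 CPM in KO. Tnfrsf23 was at 3.43 and 4.97 CPM in control and at 16.4 to 38.1 CPM in KO. Tnfrsf22 was at 17.4 and 14.9 CPM in control, 37.8, 40.9 and 62 in KO1, and 94.0, 104, 59.8 and 67.5 in KO2, with a clone difference of -0.81 (SE 0.27, adjusted p = 0.0804 by edgeR). Among the other 18 tested receptors of the family, 1 passed as higher and 6 as lower, with a median of -0.41 on the log2 scale.

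Intracellular signalling and immune regulators formed the group with the most members, 14. Tns4, a tensin without the actin-binding region that sits at focal adhesions, had rank 3. It was at 17.9 and 19.5 CPM in control, 128, 386 and 796 in KO1, and 371, 274, 968 and 346 in KO2. The libraries of each clone were far apart, and the clones overlapped, with a difference of -0.14 (SE 0.58, adjusted p = 0.899 by edgeR, 95% interval -1.26 to 0.99). Of the other tensins, Tns1 and Tns2 passed as lower and Tns3 as higher when the mean of both clones was set against control. By clone, Tns1 passed in neither (adjusted p = 0.149 in KO1 and 0.154 in KO2 by edgeR). Tns2 and Tns3 passed in KO2 but not in KO1 (adjusted p in KO1 0.58 and 0.111 by edgeR). Tns1 was at 4.73 CPM on average in control, 0.757 in KO1 and 0.900 in KO2, Tns2 at 147, 120 and 53.4 CPM, and Tns3 at 285, 352 and 499 CPM.

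Dap, a proline-rich substrate of mTOR that restrains autophagy, was the member of this group whose clones were called different. It was at 58.3 and 64.1 CPM in control, 144, 149 and 188 in KO1, and 290, 454, 311 and 355 in KO2. The clones did not overlap and differed by -1.15 (SE 0.20, adjusted p = 0.0111 by edgeR), in all 9 fits without 1 library. Several members of the group are known from blood cells: Sh2d1b1 is an adaptor of natural killer cells, Ptpn22 a phosphatase of lymphocytes, Dock8 a Cdc42 exchange factor and Unc93b1 the escort of nucleic acid-sensing Toll-like receptors. Sh2d1b1 was at 0.301 and 0.641 CPM in control and at 3.68 to 14.7 CPM in KO, and Ptpn22 at 5.49 and 6.13 CPM in control and 18.3 to 78.3 CPM in KO. The defining lymphocyte markers Cd8a, Ms4a1 and Nkg7 had no count in any library, and of the 8 macrophage markers 1 passed as higher in KO and none as lower, among 4 tested; the part of other cells in these members was not tested. The other members of the group were S100a4, Slfn9, Ankrd9, Camk1d, Aif1l, the kinase Sgk2 and the deubiquitinase Usp27x, with means 2.94-fold to 23.8-fold those in control. The G protein regulator Rgs16 was at 3.41 and 1.89 CPM in control, 12.4, 48.0 and 62.8 in KO1, and 153, 230, 71.8 and 47.1 in KO2, with a difference of -1.63 that was not called (SE 0.66, adjusted p = 0.138 by edgeR).

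**Figure D2:**
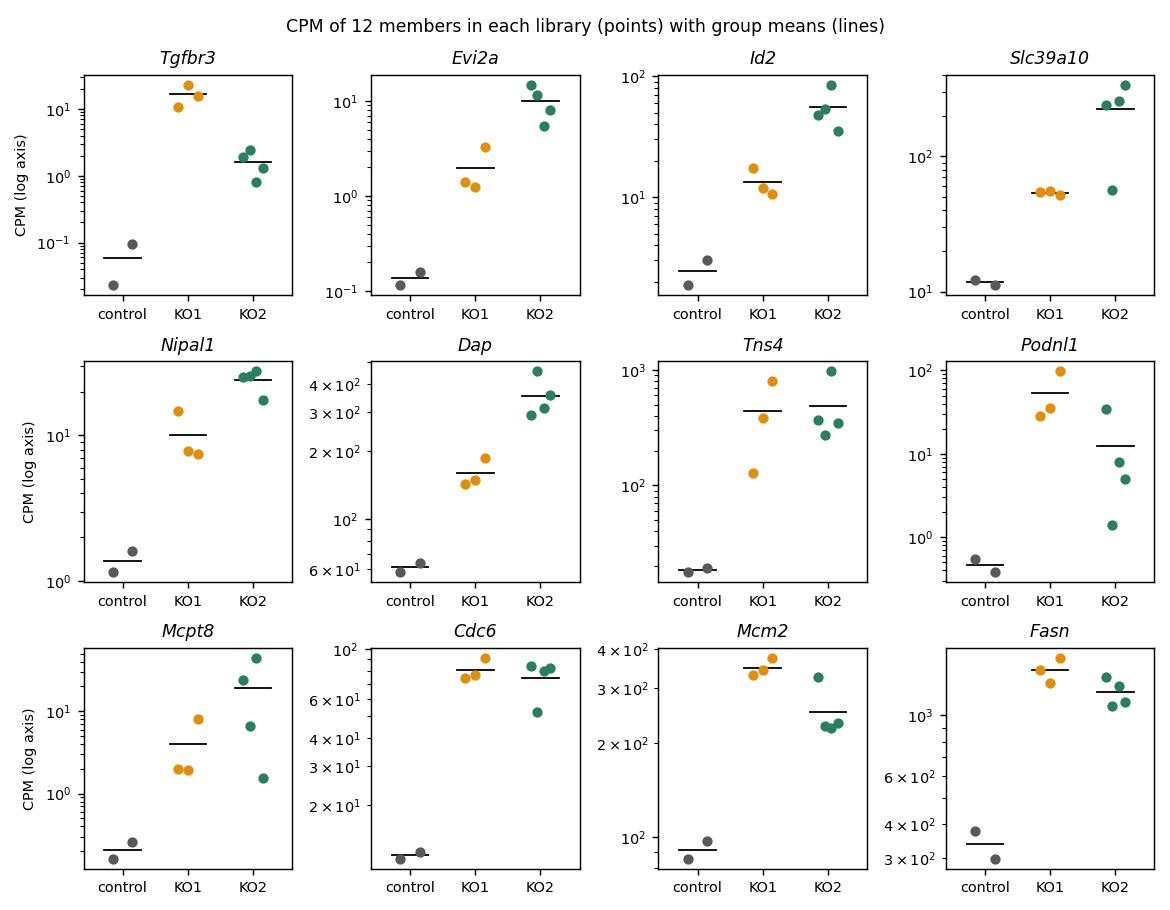
CPM (log axis) of 12 members in each library, with points for libraries and lines for group means. Tgfbr3 lies higher in KO1, while Evi2a, Id2, Slc39a10, Nipal1 and Dap lie higher in KO2; Tns4, Podnl1 and Mcpt8 scatter widely within a clone, and Cdc6, Mcm2 and Fasn have narrower ranges, with KO2 replicate 2 low for Cdc6 and KO2 replicate 1 high for Mcm2.

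Among transcription factors outside the cell cycle, Id2 separated the clones. Id2, which binds basic helix-loop-helix factors and keeps them off DNA, was at 1.88 and 3.01 CPM in control, 17.4, 11.8 and 10.7 in KO1, and 47.8, 53.3, 85.3 and 35.1 in KO2. Every KO2 library was above every KO1 library, and the difference was -2.07 (SE 0.32, adjusted p = 0.00713 by edgeR), called in all 9 fits without 1 library. Myb was at 2.50 and 1.44 CPM in control and at 11.2 to 36.4 CPM in KO. Ebf4 was at 0.0695 and 0.128 CPM in control and 0.434 to 5.06 CPM in KO. Among the 74 tested factors of the Sox, Ebf, Hox and related families that are no members, 4 passed as higher and 22 as lower.

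Transport genes were 7. Slc39a10, a zinc importer, was at 12.2 and 11.2 CPM in control, 54.4, 55.4 and 52.0 in KO1, and 241, 57.0, 256 and 341 in KO2. KO2 replicate 2 stood with the KO1 libraries and apart from the other 3 KO2 libraries. The difference was -2.05 (SE 0.46, adjusted p = 0.0239 by edgeR), between -2.37 and -1.78 when 1 library was left out, and called in 8 of those 9 fits. Nipal1, a magnesium transporter, was at 1.16 and 1.60 CPM in control, 14.8, 7.80 and 7.50 in KO1, and 25.1, 25.5, 27.5 and 17.5 in KO2, a difference of -1.27 (SE 0.29, adjusted p = 0.0258 by edgeR). The water channel Aqp1 was at 0.0927 and 0.0321 CPM in control, 0.556, 1.21 and 2.54 in KO1, and 4.69, 0.473, 2.86 and 18.8 in KO2, so that KO2 held both its lowest and its highest KO library. Sv2a, a synaptic vesicle protein, and Tmem109, a channel of inner membranes, completed the group with means 7.56-fold and 2.80-fold those in control.

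Steap3 and Tfrc act in succession in iron uptake, Tfrc as the transferrin receptor and Steap3 as the reductase of endosomal iron. Steap3 was at 2.53 and 2.69 CPM in control, 21.8, 31.0 and 31.9 in KO1, and 15.5, 19.3, 33.3 and 20.4 in KO2. Tfrc was at 128 and 102 CPM in control, 415, 308 and 500 in KO1, and 630, 828, 386 and 475 in KO2. Neither gene separated the clones, with differences of 0.35 (SE 0.27, adjusted p = 0.407) and -0.53 (SE 0.28, adjusted p = 0.25 by edgeR). Among the other 15 tested genes of iron uptake and storage, 2 passed as higher in KO and 4 as lower.

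Lipid and carbon metabolism had 9 members, with the most counts of any role. Ldha, lactate dehydrogenase A, was at 400 and 441 CPM in control and at 1033 to 1587 CPM in KO, and per kilobase of exon it had the highest KO level of all members, 412 CPM per kb. Fatty acid synthase, Fasn, was at 376 and 299 CPM in control, 1308 to 1612 CPM in KO1 and 1079 to 1381 CPM in KO2, with a clone difference of 0.26 (SE 0.14, adjusted p = 0.265 by edgeR). Slc25a10, the mitochondrial dicarboxylate carrier, had rank 5 with 9.01 and 9.85 CPM in control and 52.0 to 86.6 CPM in KO. Ebp, the sterol isomerase of cholesterol synthesis, was at 10.5 and 11.4 CPM in control, 62.7, 73.3 and 98.9 in KO1, and 33.0, 31.2, 64.8 and 49.8 in KO2; it was called higher in KO1 by 0.81 (SE 0.26, adjusted p = 0.073 by edgeR), although 1 KO2 library lay within the KO1 range. The other members were Gamt of creatine synthesis, Gmppb of GDP-mannose synthesis, the lysosomal beta-glucuronidase Gusb, Chst12 and Fabp5, with means 2.52-fold to 6.08-fold those in control. Of the other 32 genes of fatty acid and sterol synthesis, all tested, 16 passed as higher in KO and none as lower, with a median of 0.89 on the log2 scale.

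Fabp5, a fatty acid-binding protein, and Gm6166 are 2 members with near-identical sequence. Gm6166 is a processed pseudogene whose transcript aligned to Fabp5 over all of its 409 bases at 98.3% identity. Gm6166 was at 19.9 and 13.3 CPM in control and 82.8 to 132 CPM in KO, and Fabp5 at 22.3 and 17.1 CPM in control and 79.9 to 138 CPM in KO. How reads were split between them was not tested. In the same way Gm6169, at 0.626 and 0.513 CPM in control and 1.64 to 3.37 CPM in KO, aligned to Plp2 over 1002 of 1030 bases at 99.5% identity, and Plp2 itself stood just outside the members, among the 5 genes after rank 100. In all, 26 members had a copy elsewhere at 95% identity or more over at least 100 bases. With the closest copy the aligned stretch ran from 108 bases for Mcm2 to 1588 bases for Tuba1b. Tubb4b, Ldha, Mybl2, Tyms, Tnfrsf22 and Slfn9 were also among the 26, and the levels of such members carry the same limit.

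The mitochondrial members were 6, among them Atp5k and Uqcr11, small subunits of the ATP synthase and of complex III, the carbonic anhydrase Car5b and Coq7, a hydroxylase of ubiquinone synthesis, with the mitophagy receptor Fundc1 and the ribosomal protein Mrpl41. Coq7 was at 13 and 12.3 CPM in control, 53.9, 40.9 and 45.6 in KO1, and 30.6, 28.7, 34.7 and 30.2 in KO2. The clones did not overlap and differed by 0.58 (SE 0.14, adjusted p = 0.0303 by edgeR), in 8 of 9 fits without 1 library. Among 4 members of RNA and protein handling, the proteasome lid subunit Psmd13 was at 51.4 and 48.1 CPM in control, 170 to 204 CPM in KO1 and 121 to 152 CPM in KO2, with a difference of 0.43 (SE 0.13, adjusted p = 0.0576 by edgeR). The cold-inducible RNA-binding protein Rbm3 was at 126 and 134 CPM in control and at 338 to 515 CPM in KO. The spliceosomal proteins Lsm3 and Snrpd2 had means 2.67-fold and 2.84-fold those in control.

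Pmp22 and the lincRNA Gm43241 had no count in either control library. Pmp22, a protein of compact myelin that is also made in epithelia, was at 4.16, 3.13 and 8.4 CPM in KO1 and at 4.2, 19, 0.137 and 0.675 CPM in KO2. Its mean in KO was at least 141-fold higher than 3 counts over both controls allow, but 2 KO2 libraries were under 1 CPM. Gm43241 was at 3.62, 1.5 and 1.45 CPM in KO1 and at 2.56, 5.91, 0.321 and 0.572 CPM in KO2, a mean at least 56.4-fold higher than that floor. The related Emp3 was at 3.11 and 1.60 CPM in control and 7.15 to 31.3 CPM in KO, while of the other 7 tested genes of the Pmp22 and Emp list 1 passed as higher and none as lower.

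Noncoding members were few. Mir3091 was at 0.348 and 0.321 CPM in control and 0.920 to 3.33 CPM in KO; its hairpin lies inside Rps21 on the same strand (chr2:180257536-180257611), and reads of polyadenylated RNA on it are not reads of the mature miRNA. Rbm3os, antisense to Rbm3, was at 0.348 and 0.449 CPM in control and 1.16 to 1.94 CPM in KO. Since the counting is not stated to use strand, reads of Rbm3os and Rbm3 cannot be told apart where they overlap, and in all 26 members overlap an annotated gene on the opposite strand. The cysteine tRNA of mitochondria, mt-Tc, was at 0.626 and 0.449 CPM in control and 2.48 to 8.79 CPM in KO. Tctn2 of the ciliary transition zone, Ccdc96 and B630019K06Rik, with means 4.06-fold to 4.89-fold those in control, belong to no larger group.

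Over all 100 members, the difference between KO1 and KO2 was called in 18, beside 19.6% of all genes tested. It was higher in KO1 in 9 (9.43% of all genes) and higher in KO2 in 9 (10.2% of all genes). The clones did not overlap in 21 members, beside 24.2% of all genes. The rule bears on this comparison. It ranked by the lowest KO library, which for a given mean favors genes with little spread among the KO libraries. A member also had to be above control in both clones, which leaves out genes gained in a single clone. Both limit how far the clones can part. The median absolute difference was 0.31 on the log2 scale for members and 0.36 for all genes tested, and it was under 1 for 85 members and for 83.3% of all genes. The 82 members without a call are not shown to be equal: the 95% interval of the difference reached 0.44 to either side at their median. With only the KO1 and KO2 libraries in the fit 9 members were called, 8 without either control library, 5 without KO1 replicate 2, and 11 without KO1 replicate 1 or KO1 replicate 3. The calls of Tgfbr3, Id2, Evi2a and Dap held in all 9 fits without 1 library, and those of Slc39a10, Nipal1 and Coq7 in 8. The call of Il24 held in 6 of the 9 fits, those of Ung and Tubb2b in 4, of Tnfrsf22 and Tubb4b in 3, of Ebp, Psmd13, Suv39h1 and Gm8995 in 2, and of Mcm2 and Zan in 1.

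**Figure D3:**
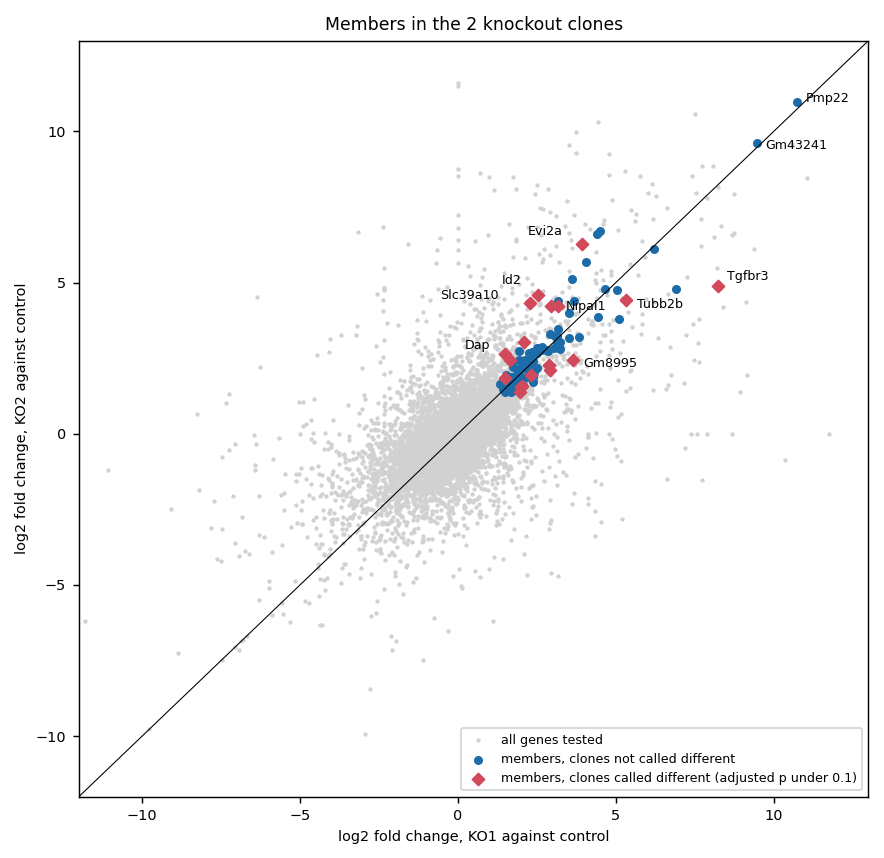
Log2 fold change against control in KO1 (x axis) and KO2 (y axis) for the 15023 genes tested (gray; 4 lie outside the axes) and the 100 members, with red diamonds for the 18 whose clones were called different and a line where both clones are equal. All members lie up and right because the rule put them there; Tgfbr3 and Tubb2b fall below the line and Evi2a, Id2 and Slc39a10 above it, and the fitted values of Pmp22 and Gm43241 depend on how 0 counts are treated.

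Most changes at both edges of the ranking were moderate. On the log2 scale, KO minus control was 3.08 for Camk1d and 3.61 for Fam111a, above the members' median of 2.27. Just inside, Aif1l was at 8.18 and 6.8 CPM in control and 17.8 to 27.3 CPM in KO, Camk1d at 0.834 and 0.930 CPM and 2.13 to 11.7 CPM, Clspn at 26.8 and 32.0 CPM and 68.9 to 99.8 CPM, Mrpl41 at 12.2 and 11.6 CPM and 26.1 to 38.3 CPM, and Snrpd2 at 37.0 and 39.6 CPM and 84.8 to 122.96 CPM. Just outside, Gcat was at 50.5 and 52.1 CPM and 111 to 228 CPM, Cad at 206 and 189 CPM and 440 to 588 CPM, Pola2 at 44.9 and 47.2 CPM and 100.7 to 158 CPM, Fam111a at 1.51 and 9.85 CPM and 20.9 to 122 CPM, and Plp2 at 73.1 and 70.6 CPM and 155 to 279 CPM. Cad, of pyrimidine synthesis, and Pola2, of the primase complex, would have joined the replication and nucleotide groups.

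The members were then placed on the genome (GRCm38, gene positions of GENCODE vM21). Chromosome 7 held 14 members and 7.24% of the genes tested, chromosome 5 held 11 and 6.88%, and the X chromosome held 9 and 2.98%. Of the X members, 6 each lay within 1 Mb of another in a stretch of 1524 kb (chrX:7371276-8894964): Usp27x, Suv39h1, Rbm3, Rbm3os, Ebp and B630019K06Rik. The stretch was marked out by the members, and the values of its other genes come from the contrast that chose them, so they are given as a description. Among its other 26 tested genes, 17 passed as higher in KO (65.4%) and 1 as lower, with a median of 1.34 on the log2 scale in KO1 and 1.08 in KO2.

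Of the 416 tested genes on the X chromosome outside the stretch, 130 passed as higher (31.2%) and 22 as lower, with a median of 0.35 for KO against control, beside 0.02 over all genes tested. Neighbours in the stretch with values near the members' were the membrane protein Plp2, the mitochondrial import subunit Timm17b (11.8 CPM on average in control, 38.4 in KO1 and 30.5 in KO2), the prenylated Rab acceptor Praf2 (11.4, 42.8 and 30.8 CPM) and the deacetylase Hdac6 (30.9, 96.8 and 66.0 CPM). Genes with the other direction or none also lay there: the potassium channel Kcnd1 was at 0.504, 0.0913 and 0.0947 CPM, and Ccdc120 at 60.7, 65.8 and 63.0 CPM. Whether the number of X chromosomes or of copies of the stretch differs between the clones and the controls was not measured.

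**Figure D4:**
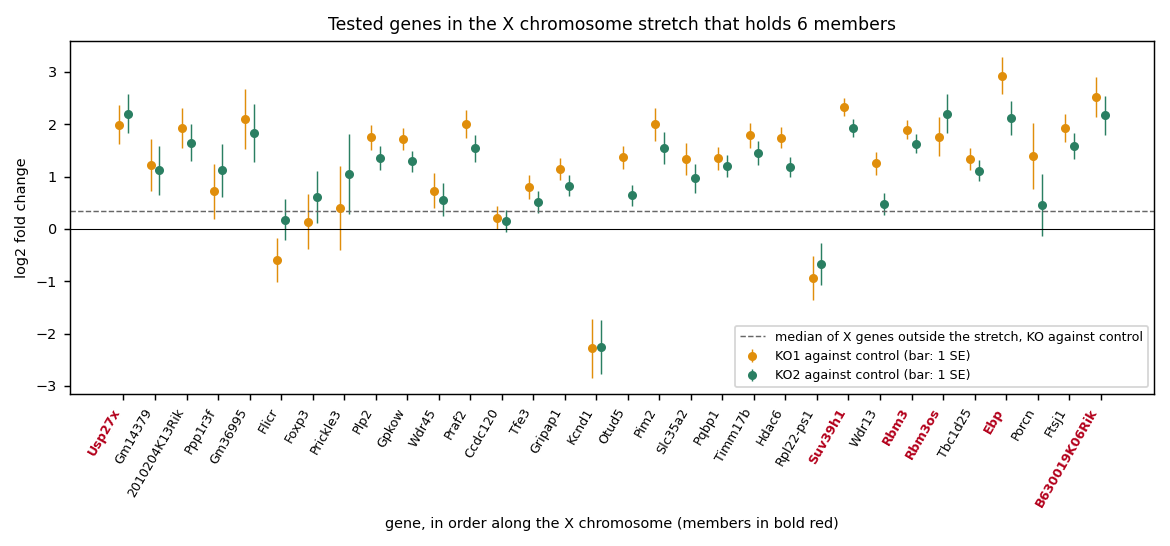
Log2 fold change against control (with 1 SE) in KO1 and KO2 for the 32 tested genes of the X chromosome stretch, in gene order, with members in bold red and the median of X genes outside the stretch dashed at 0.35. Of the 32 genes, 29 lie above 0 in both clones, while Kcnd1 and Rpl22-ps1 lie below 0 in both.

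The remaining pairs of members within 1 Mb were Cdc6 and Tns4, Slc25a10 and Fasn, Rrm2 and Id2, Fen1 and Tmem109, Gamt and Uqcr11, Mrpl41 and Tubb4b, Sgk2 and Mybl2, Cdc7 and Tgfbr3, and Emp3 and Ldha. Between Slc25a10 and Fasn on chromosome 11, 9 of 26 other tested genes passed as higher and 2 as lower. Between Rrm2 and Id2 on chromosome 12, none of 2 passed as higher and 1 as lower, and between Cdc7 and Tgfbr3 on chromosome 5 no other gene was tested.

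To ask how the members stand to the sites pulled down with MaTAR25, the ChIRP peaks were assigned to the gene of the nearest promoter in the authors' annotation. In the list of the total oligo pool in 4T1 cells, 54 of the 100 members had a peak, beside 59.6% of all genes tested. The share was 41% in the even pool, 48% in the odd pool and 47% in the total pool of NDL cells, mammary tumor cells that the study's methods call MMTV-Neu-NDL and the labels MMTV-PyMT, beside 52.9%, 52.4% and 58.0% of all genes. With a peak score of 100 or more it was 15% of members and 26.1% of genes in the total pool. Members are shorter than other genes, with a median length of 13.5 kb against 18.7 kb for all genes tested, and the part of gene length in these shares was not tested. A peak in all 4 lists was found for 25 members and for 34.4% of genes, and 36 members and 26.9% of genes had none in any. The lists were called on pooled replicates, so no replicate check could be made, and no test of the shares was made.

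Among peaks whose nearest promoter is that of a member, the highest scores in the 4T1 total pool were for Fer1l6, Tpgs2, Camk1d and Dap. The Fer1l6 peak (score 679.7, chr15:58617409-58618033) lay 20784 bases from the start, and that of Tpgs2 (score 572.2) 155065 bases. The Camk1d peak (score 549.8, chr2:5752551-5753175), labelled intergenic, lay 38348 bases from the start, and that of Dap (score 522.7, chr15:31259273-31260656) 8372 bases. These peaks ranked from 307 to 798 in a list of 76806 peaks. Fer1l6, a ferlin of the membrane fusion family, was at 1.07 and 0.994 CPM in control, 4.14, 12.8 and 8.90 in KO1, and 47.4, 9.58, 14.4 and 9.48 in KO2. Pcsk6 had 13 peaks, more than any other member, with a highest score of 103.6.

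**Figure D5:**
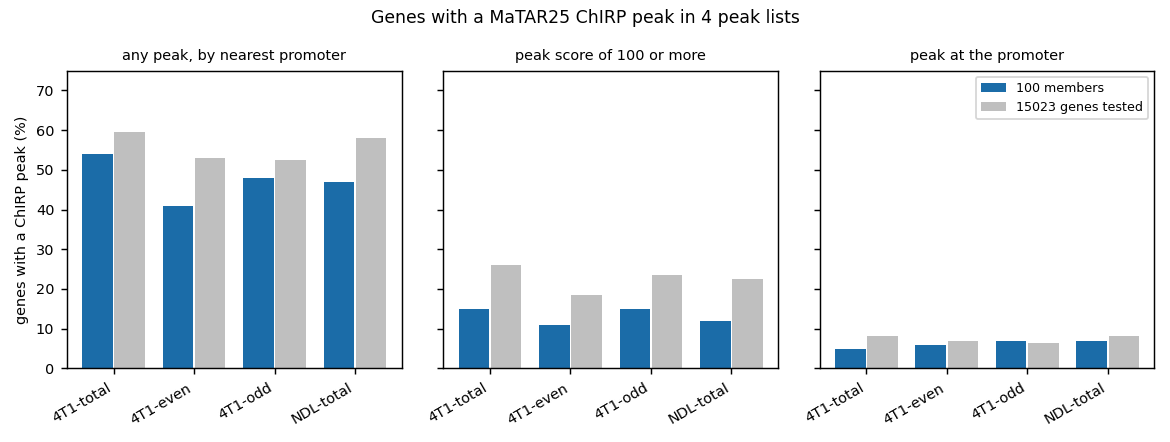
Percent of the 100 members (blue) and of the 15023 genes tested (gray) with a ChIRP peak in 4 lists, for any peak, for peaks with a score of at least 100, and for peaks labelled as at a promoter of any transcript. Members are below all tested genes in each list in the first 2 panels, and between 5% and 7% of members have a promoter peak, beside 6.37% to 8.28% of all genes.

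A peak that the authors' annotation labels as at the promoter of some transcript of the gene was given for 5 members in the total pool: Tnfrsf23, Ung, Fanca, Rbm3 and Mcm3, beside 8.28% of all genes tested. The label takes in starts of any annotated transcript, and of these 5 peaks only those of Tnfrsf23 (300 bases) and Fanca (45 bases) overlapped a RefSeq promoter window of the gene. Peaks labelled in this way were also listed for Tnfrsf23 and Rbm3 in the even pool and the NDL list, for Fanca in the odd pool and the NDL list, and for Mcm3 in the even pool, where those of Rbm3, those of Mcm3 and the odd-pool peak of Fanca shared no base with such a window. The peaks were low, with scores from 18.1 at Mcm3 to 47.9 at Rbm3 in the total pool. At Tnfrsf23 the peaks of 3 lists (in the total pool chr7:143685808-143686307, score 36.9) covered the whole RefSeq promoter window. Its 250 bases before the start are shown, with 1 CCAAT word and 1 TATAAA word, which here reads TTTATA, in capitals.
Tnfrsf23, chr7:143685876-143686125, minus strand: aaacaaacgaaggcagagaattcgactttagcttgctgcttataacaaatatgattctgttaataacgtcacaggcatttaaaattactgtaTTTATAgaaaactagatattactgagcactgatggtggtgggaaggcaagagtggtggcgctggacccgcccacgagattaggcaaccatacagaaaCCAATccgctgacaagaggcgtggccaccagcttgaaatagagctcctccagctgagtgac

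The lists of pathways drawn up for this tissue were last set against the members. Of 15 such lists, 5 held a member: channels (Aqp1), solute carriers (Slc39a10 and Slc25a10), the transcription factor families above, tensins, and the Pmp22 and Emp list. None held more than 2. Lists of xenobiotic metabolism, germline, placental and imprinted genes, growth factors, TGF-beta ligands, metalloproteases, zinc fingers, caveolae and the dystrophin complex held none. Of 62 tested genes of xenobiotic metabolism 20 passed as higher in KO and 4 as lower, and of 46 metalloproteases and inhibitors 13 and 5. Higher calls also led for placental genes (3 and 2), caveolae (4 and 1) and the dystrophin complex (2 and 0). Lower calls led for zinc fingers (15 higher and 74 lower), growth factors (4 and 11), TGF-beta ligands (2 and 5) and imprinted genes (2 and 4). Germline genes had 2 of each. Over all genes tested, 16.6% passed as higher and 16.4% as lower.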

How the data were processed

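Single-end RNA-seq of polyadenylated RNA and ChIRP-seq of MaTAR25 were analysed. The authors mapped RNA reads with STAR to GRCm38 and deposited raw HTSeq counts per gene on GENCODE vM5; how strand was handled is not stated in the sources used here. KO2 replicate 2 lists each gene 3 times, used once. The authors called ChIRP peaks with HOMER on pooled replicates against a Ppib pulldown, at GRCm38, and deposited a score per peak.

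The 100 members, their roles and the gene lists were chosen with earlier results of these data known. The lists of tubulins, origin licensing, TNF receptors, lipid synthesis and iron, the roles and examples within them were written after the members were seen. Genes named were the first 20 ranks, clone differences, most abundant, edge ranks, neighbours within 1 Mb, list members and promoter peaks. 1 member is not reported here.

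Counts were fitted with edgeR 4.0.16 in R 4.3.3 (TMM, filterByExpr, quasi-likelihood test, 3 groups, Benjamini-Hochberg threshold of 0.1, as the study's FDR), and tested on simulated data. The study used DESeq2; DESeq2 1.42.0 was an alternative, beside RLE factors, filters, threshold, pairing and omitted libraries. Intervals of 95% take the normal approximation from the SE. Copies were aligned with blastn 2.17.0 (at least 95% over 100 bases). Promoters are from RefSeq.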

Additional observations from a re-analysis of the deposited data

Results flagged for a closer look

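KO1 and KO2 are 1 clone each, so a clone difference and a difference in knockout effect cannot be told apart. The change from control differed between KO1 and KO2 in 18 members by edgeR's test of KO1 minus KO2, beside 19.6% of all genes tested. On the log2 scale it was larger in KO1 for Tgfbr3 (3.34), Gm8995 (1.19), Tubb2b (0.91), Ebp (0.81), Ung (0.61), Coq7 (0.58), Mcm2 (0.46), Psmd13 (0.43) and Suv39h1 (0.40). It was larger in KO2 for Evi2a (-2.35), Id2 (-2.07), Slc39a10 (-2.05), Nipal1 (-1.27), Dap (-1.15), Il24 (-1.04), Zan (-0.95), Tnfrsf22 (-0.81) and Tubb4b (-0.38). Zan, a sperm membrane protein, was at 2.46 to 2.83 CPM in KO1 and 3.13 to 7.21 CPM in KO2, and Gm8995, an unprocessed pseudogene, at 23.6 to 77.5 CPM in KO1 and 15.5 to 39.0 CPM in KO2.

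Among the 4 KO2 libraries, 1 library stood apart from the other 3 in 9 of the 100 members, beside 6.72% of all genes tested; chance flags about 1 group in 20. KO2 replicate 1 was the high library for Fer1l6 (47.4 CPM, beside 9.48 to 14.4), Mcm2 (324 CPM, beside 223 to 232), Lsm3 (49.4 CPM, beside 36.7 to 37.4) and E2f8 (160 CPM, beside 109 to 116). KO2 replicate 3 was the high library for Tns4 (968 CPM, beside 274 to 371), Dpf1 (5.11 CPM, beside 2.33 to 2.78) and Gm6169 (1.97 CPM, beside 1.64 to 1.69). KO2 replicate 2 was high for Tmem109 (202 CPM, beside 136 to 138) and low for Cdc6 (52.4 CPM, beside 79.8 to 84.0).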

How the results depend on the processing

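The count of 18 members called between KO1 and KO2 was 7 at an adjusted p of 0.05, 9 with only the KO1 and KO2 libraries and 9 with the replicate block, and 5 (without KO1 replicate 2) to 20 when 1 library was left out: 8 without either control library, 11 without KO1 replicate 1 or 3. DESeq2 gave 22 and the other filters and RLE factors 14 to 18. These fits differ in the number of libraries or of terms; otherwise the cause was not tested. Same-numbered libraries did not deviate together (7 pairs, correlations of -0.15 to 0.04), so no pairing by number was shown. Groups this small constrain these correlations, so shared batches cannot be judged from them. Of the 18 members, 8 were also called with the block. None of the 18 differences changed direction in any of their 268 refits, of which 98 lost the call. Calls against control were 88 at 10 counts in every library, a filter that leaves members with few control counts untested, among them Tgfbr3 and Evi2a. They were 87 to 100 when 1 library was left out. The ranking itself depended on its form: 34 of the 100 stayed among the first 100 by mean KO over mean control, 84 to 97 under the other forms, and 73 (without KO2 replicate 2) to 96 without 1 library. Members with a total-pool peak fell from 54 to 15 at a score of at least 100. At under 1 CPM, counts are too few to compare clones.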
